A study of Mus musculus with 24 samples.

Results

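The genes followed here were 8 genes of renal glucose production, ammonia production and glucose transport, Pck1, G6pc, Fbp1, Pcx, Pygl, Glud1, Slc2a2 and Slc5a2. They were chosen by name for their roles, and each was found under 1 identifier among the 56941 genes of the kidney count table. Of the 8 genes, 7 were among the 12780 genes that passed a filter on low counts and were tested, and Slc5a2 did not pass. The kidneys came from male C57BL/6 J wild-type mice that were 8 to 11 weeks old when operated. Myocardial infarction (MI) was induced by tying off the left anterior descending coronary artery for good, a model without reperfusion, and sham mice had the same surgery but no ligation. Libraries were made with MACE (Massive Analysis of cDNA Ends), which reads the 3′ ends of mRNA and removes PCR duplicates with unique molecular identifiers. Values could be assigned for 22 kidneys, namely 8 sham kidneys collected 5d after surgery, 8 kidneys at 5d post-MI and 6 kidneys at 28d post-MI. All 3 groups shared the wild-type genotype and the surgery. The sham kidneys served as controls for both times, so an effect of ligation at 28d post-MI cannot be told apart from one of longer recovery or older age. The comparisons ask whether genes of these pathways differed in the kidney after infarction.

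Besides the liver, the kidney is an organ that can release newly made glucose, and it does so in the proximal tubule from lactate, glutamine and glycerol. Glutamine is broken down there to ammonium, which is excreted with acid, and to 2-oxoglutarate, whose carbon can leave the mitochondrion as malate and be turned into glucose. The steps that are particular to glucose synthesis are catalysed by pyruvate carboxylase (Pcx), cytosolic phosphoenolpyruvate carboxykinase (Pck1), fructose-1,6-bisphosphatase (Fbp1) and glucose-6-phosphatase (G6pc). Glutamate dehydrogenase (Glud1) releases ammonium from glutamate, the liver-type glycogen phosphorylase (Pygl) splits glucose units from glycogen, and the transporters GLUT2 (Slc2a2) and SGLT2 (Slc5a2) carry glucose across the basolateral and the luminal membrane.

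Pck1 and G6pc are textbook examples of genes regulated through their promoters by glucagon, glucocorticoids, insulin and acidosis, and for this reason the 250 bases before their start sites are shown, 5′ to 3′, on the + strand of the mouse build GRCm38.p6 as RefSeq gives them. The Pck1 sequence is chr2:173152823-173153072 and the G6pc sequence is chr11:101367466-101367715. Capitals mark motifs found by their letters on either strand.
Pck1: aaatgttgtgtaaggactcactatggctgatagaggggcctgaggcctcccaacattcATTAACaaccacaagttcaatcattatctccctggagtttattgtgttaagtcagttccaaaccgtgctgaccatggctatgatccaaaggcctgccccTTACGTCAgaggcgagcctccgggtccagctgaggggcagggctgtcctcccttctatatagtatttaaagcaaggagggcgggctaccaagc
G6pc: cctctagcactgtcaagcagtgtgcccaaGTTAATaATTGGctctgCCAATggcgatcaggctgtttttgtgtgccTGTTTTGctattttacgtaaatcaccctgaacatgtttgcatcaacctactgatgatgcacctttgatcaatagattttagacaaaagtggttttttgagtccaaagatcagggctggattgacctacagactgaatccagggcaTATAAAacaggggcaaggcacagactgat
The GENCODE annotation places the first start of Pck1 25 bases and that of G6pc 155 bases before the RefSeq start.

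A cyclic AMP response element of the form TTACGTCA began 93 bases before the start of Pck1, and this form stood in 0.499% of all 32851 promoter windows of 300 bases. The Pck1 window also held the HNF1-type motif GTTAAT on the other strand, at -192, a motif found in 7.10% of all windows. In G6pc the marked letters were GTTAAT at -221, the CCAAT box at -214 and -204, the FOXO-type motif TGTTTTG at -174 and the TATA box TATAAA at -29. CCAAT stood in 37.4%, TGTTTTG in 6.28% and TATAAA in 13.6% of all windows. No marked motifs overlapped each other. Promoter windows were matched for 7 of the 8 genes, with a pair of starts for Pcx. CCAAT also occurred in the windows of Fbp1, Slc2a2 and Pcx. The palindromic element TGACGTCA, the motif TGTTTAC and the glucocorticoid receptor-type motif TGTTCT, with 1.79%, 3.65% and 19.0% of all windows, were not among the letters of any of these windows. These matches describe letters only, and the motifs were chosen after the expression values had been seen.

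Total counts per kidney were between 2280618 and 3786275. Tubule and glomerulus markers were present in every kidney, with the phosphate transporter Slc34a1 at 3207 to 4902, uromodulin (Umod) at 643 to 1129 and podocalyxin (Podxl) at 77.4 to 112 CPM (normalized read counts, scaled to the effective library size). The 8 hepatocyte genes summed to 973 to 1330 CPM in sham kidneys, 939 to 1387 CPM at 5d and 920 to 1418 CPM at 28d post-MI, with Ttr at 396 to 839, Cyp2e1 at 310 to 609 and Serpina1a at 30.7 to 138 CPM. The other 5 were lower in every kidney, among them Ahsg with 0 counts in 20 of the 22 kidneys and albumin (Alb) with a median of 3.18 CPM. The kidneys sham 2, sham 6 and 5d replicate 5 stood apart by adrenal cortex genes, which summed to 806, 653 and 81.7 CPM against 5.69 to 10.5 CPM in the other kidneys. Summed white adipocyte genes ranged from 427 to 2085 CPM in sham kidneys, from 212 to 1518 CPM at 5d and from 417 to 1051 CPM at 28d post-MI. Summed proximal tubule genes were at 55423 to 67816 CPM in sham kidneys, 40252 to 73702 CPM at 5d and 69675 to 78766 CPM at 28d post-MI, and most of this sum was Kap, a kidney androgen-regulated gene with 28486 to 61786 CPM.

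None of the 8 genes was a DEG (adjusted p < 0.05, edgeR quasi-likelihood test with Benjamini-Hochberg adjustment over all tested genes) in any comparison. At 5d post-MI against sham, 0 of 7 tested genes passed, against 0.0704% of all tested genes. At 28d post-MI 0 of 7 passed, against 0.0235% of all genes, and between 28d and 5d post-MI 0 of 7 passed, against 0.415% of all genes. An unadjusted p under 0.05 was reached in edgeR by 1 gene at 5d (Pygl), by 2 genes at 28d (Pygl and Slc2a2) and by 1 gene between the times (Glud1), beside 7.9%, 8.68% and 9.05% of all tested genes. DESeq2 called Pygl at 28d post-MI, as 1 of 42 DEGs or 0.329% of all genes, and no member in the other comparisons, and limma voom called no member. No member had groups that did not overlap in CPM, which 0.0548% of all tested genes had at 5d, 0.258% at 28d and 0.344% between the times. The tissue is bulk kidney, so fewer cells of a type and less RNA per cell cannot be told apart.

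**Figure D1:**
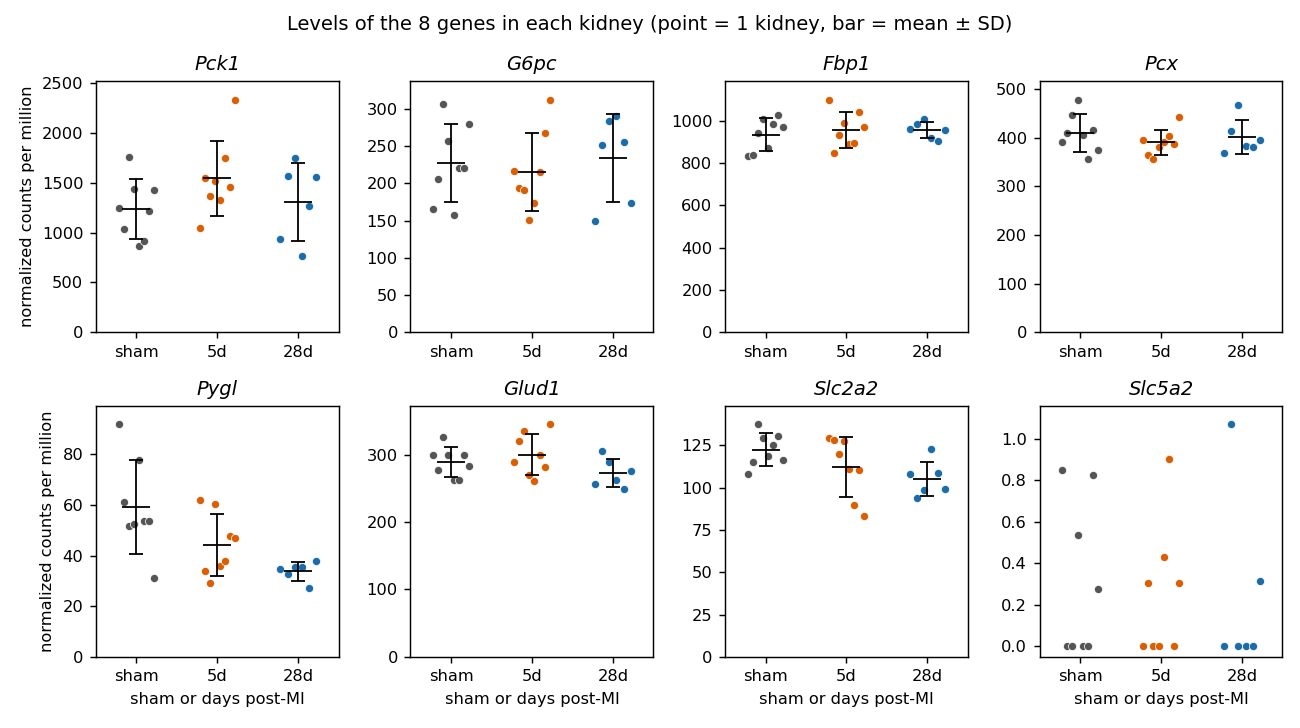
Normalized CPM (y axis, linear) of the 8 genes in sham, 5d post-MI and 28d post-MI kidneys (x axis), with 1 point for each of the 22 kidneys and bars for the mean ± SD, left out for Slc5a2. The 6 kidneys at 28d post-MI hold Pygl between 27.0 and 37.9 CPM, at or below the lower part of the sham range of 31.1 to 91.8 CPM, while the groups overlap for every gene and Slc5a2 stays at or near 0.

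Pcx makes oxaloacetate from pyruvate, the entry step of the pathway from lactate, and lies at chr19:4510472-4621752 (GENCODE M21, GRCm38, + strand). Sham kidneys had 357 to 479 CPM (median 408), kidneys at 5d post-MI 356 to 443 CPM (median 390) and kidneys at 28d post-MI 370 to 467 CPM (median 389). The 3 ranges covered each other almost completely. The log2 fold change was -0.07 (SE 0.05, 95% confidence interval -0.18 to 0.04, adjusted p = 0.811 in edgeR) at 5d and -0.03 (SE 0.06, interval -0.15 to 0.09, adjusted p = 0.942) at 28d post-MI.

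Pck1 turns oxaloacetate into phosphoenolpyruvate in the cytosol and is a main point of control of glucose synthesis. It lies at chr2:173153048-173159273 (+ strand). Its level was 864 to 1764 CPM in sham kidneys (median 1233), 1043 to 2338 CPM at 5d post-MI (median 1491) and 761 to 1746 CPM at 28d post-MI (median 1414). At 5d post-MI, 7 of 8 kidneys were above the sham median and 1, replicate 9, was above every sham kidney. The mean was 1547 ± 379 CPM (SD, n = 8) against 1239 ± 302 CPM (SD, n = 8) in sham, a log2 fold change of 0.32 (SE 0.19, interval -0.07 to 0.71, adjusted p = 0.722 in edgeR). Without replicate 9 of the 5d group it was 0.21, and without the 3 kidneys with adrenal genes it was 0.23. The difference at 28d post-MI was 0.08 on the log2 scale (SE 0.20, interval -0.35 to 0.50, adjusted p = 0.963), and it changed sign to -0.02 without 28d replicate 3 or without the 3 kidneys with adrenal genes.

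The mitochondrial counterpart of Pck1, Pck2, was measured at 7.96 to 18.7 CPM over all kidneys, with log2 fold changes of 0.17 (adjusted p = 0.812) at 5d and 0.04 (adjusted p = 0.975) at 28d post-MI in edgeR. Levels of members and of their counterparts are not set against each other, since 3′ end counts also depend on how well each 3′ end is captured.

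Fbp1 removes a phosphate from fructose-1,6-bisphosphate and lies at chr13:62864753-62888282 (- strand). It had the smallest spread within groups of the 7 tested members. Sham kidneys had 833 to 1028 CPM (median 955), kidneys at 5d post-MI 845 to 1099 CPM (median 951) and kidneys at 28d post-MI 905 to 1006 CPM (median 956). The group medians differed by less than the spread within any group. The log2 fold change of Fbp1 was 0.04 (SE 0.05, interval -0.07 to 0.14, adjusted p = 0.921 in edgeR) at 5d and 0.03 (SE 0.05, interval -0.08 to 0.14, adjusted p = 0.925) at 28d post-MI, so that at this depth the intervals reached 1.10-fold at most. Its muscle-type counterpart Fbp2, at 14.3 to 27.9 CPM, had a log2 fold change of 0.25 at 5d (unadjusted p = 0.0378, adjusted p = 0.596 in edgeR) and -0.15 at 28d post-MI.

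G6pc releases free glucose from glucose-6-phosphate, the last step shared with glycogen breakdown, and lies at chr11:101367561-101377903 (+ strand). It was measured at 158 to 307 CPM in sham kidneys (median 221), 151 to 313 CPM at 5d (median 204) and 149 to 291 CPM at 28d post-MI (median 254). Kidneys of every group lay near both ends of this range. Its log2 fold change was -0.07 (SE 0.17, interval -0.44 to 0.29, adjusted p = 0.956 in edgeR) at 5d and 0.05 (SE 0.19, interval -0.35 to 0.44, adjusted p = 0.980) at 28d post-MI, and the sign at 28d changed when single kidneys were left out. With a proximal tubule score as covariate the 28d differences of Pck1 and G6pc were -0.11 and -0.17 on the log2 scale. The ubiquitous enzyme G6pc3 stayed between 53.9 and 75.2 CPM, with log2 fold changes of 0.002 and -0.01 (adjusted p = 0.998 and 0.991).

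Pygl, at chr12:70190811-70231488 (- strand), was the member with the largest difference from sham. Kidneys at 28d post-MI had 27.0 to 37.9 CPM (median 35.0), kidneys at 5d post-MI 29.1 to 61.8 CPM (median 42.3) and sham kidneys 31.1 to 91.8 CPM (median 53.6). The sham median was above all 6 kidneys at 28d and above 6 of 8 kidneys at 5d post-MI, but sham replicate 8, at 31.1 CPM, was within the 28d range, and 28d replicate 6, at 27.0 CPM, was below every sham value. Sham kidneys had a mean of 59.2 ± 18.4 CPM (SD, n = 8) and 28d kidneys one of 33.8 ± 3.76 CPM (SD, n = 6), and by the DESeq2 test Pygl fell (adjusted p = 0.0136). In edgeR the same difference, a log2 fold change of -0.80 (SE 0.21, interval -1.25 to -0.36) or 0.573-fold, had an unadjusted p of 0.00127 and an adjusted p of 0.246, and in limma voom the adjusted p was 0.400. At 5d post-MI the mean was 44.2 ± 12.1 CPM (SD, n = 8), with a log2 fold change of -0.42 (SE 0.19, interval -0.81 to -0.03, unadjusted p = 0.0369, adjusted p = 0.593 in edgeR).

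White adipocyte genes moved with Pygl. All 10 tested genes of the 11 in that list had negative log2 fold changes at both times. Their medians were -0.63 at 5d and -0.94 at 28d post-MI. An unadjusted p under 0.05 in edgeR was reached by 4 and 6 of them, beside 7.9% and 8.68% of all tested genes. None of the tested white adipocyte, brown adipocyte or leukocyte genes was a DEG in edgeR at either time. The 5 tested brown adipocyte genes were all negative as well, with medians of -0.70 at 5d and -2.25 at 28d post-MI. An unadjusted p under 0.05 in edgeR was reached by 1 and 5 of them. All 7 listed brown adipocyte genes summed to 25.8 to 387 CPM in sham, 3.03 to 290 CPM at 5d and 17.7 to 97.6 CPM at 28d. Of 6 tested leukocyte genes 6 were negative at 5d (median -0.36, 4 at an unadjusted p under 0.05) and 5 at 28d post-MI (median -0.14, 1 at an unadjusted p under 0.05), and the part of brown adipocyte and leukocyte genes in the Pygl values was not tested. Of the defining markers Adipoq was at 6.06 to 95.5 CPM and Plin1 at 1.73 to 60.3 CPM, and Lep was at 0 in 2 kidneys. Sham replicate 8 had the lowest summed adipocyte genes of its group, 427 CPM, and also the lowest Pygl. Over the 22 kidneys, as deviations from the group means, Pygl and the adipocyte score (the mean log2 CPM of the list) had a Pearson's r of 0.73 and a Spearman's rho of 0.73 (adjusted permutation p = 0.0168 and 0.0174 over 42 relations). Within groups r was 0.89 in sham, 0.66 at 5d and 0.78 at 28d post-MI, and without the 2 kidneys farthest from the median of Pygl it was 0.70.

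With this adipocyte score as a covariate the edgeR log2 fold change of Pygl was -0.12 (adjusted p = 0.937) at 5d and -0.45 (unadjusted p = 0.00972, adjusted p = 0.638) at 28d post-MI. Over all alternatives it lay between -0.84 and -0.45 at 28d, with adjusted p between 0.0136 and 0.638. Leaving out sham replicate 8 gave -0.90, the one edgeR fit of those that left out a kidney in which Pygl passed (adjusted p = 0.0486), and leaving out sham replicate 1 gave -0.68 (adjusted p = 0.407). Without the 3 kidneys with adrenal genes, an alternative chosen after seeing the data, the 28d value was -0.82 (adjusted p = 0.441).

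**Figure D2:**
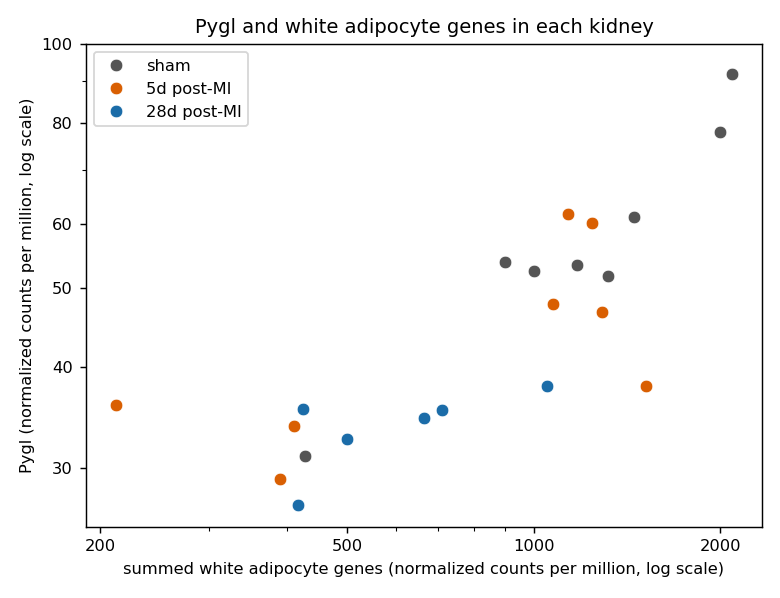
Pygl (y axis) against the summed white adipocyte genes (x axis), both in normalized CPM on log scales, with 1 point per kidney coloured by group. Sham replicates 1 and 5, with the highest adipocyte sums, hold the highest Pygl values (91.8 and 77.9 CPM), and kidneys of all 3 groups meet in the lower left, where sham replicate 8 lies at 427 and 31.1 CPM.

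The brain-type and muscle-type phosphorylases were both measured. Pygb was at 17.4 to 28.1 CPM, with log2 fold changes of -0.15 and -0.17 (adjusted p = 0.746 and 0.695 in edgeR). Pygm was at 1.22 to 7.07 CPM, with log2 fold changes of -0.22 and -0.34 (adjusted p = 0.873 and 0.763).

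Glud1, the mitochondrial enzyme that frees ammonium from glutamate, lies at chr14:34310727-34345265 (+ strand). It was at 263 to 327 CPM in sham kidneys (median 291), 261 to 345 CPM at 5d (median 295) and 249 to 305 CPM at 28d post-MI (median 269). The 28d kidneys lay towards the lower end, with 5 of 6 below the sham median and 3 of 6 lower than any sham kidney. The log2 fold change was 0.06 (SE 0.06, interval -0.06 to 0.17, adjusted p = 0.875 in edgeR) at 5d and -0.08 (SE 0.06, interval -0.21 to 0.04, adjusted p = 0.770) at 28d post-MI. Between the times it was -0.14 (SE 0.06, interval -0.26 to -0.01, unadjusted p = 0.0295, adjusted p = 0.484).

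Slc2a2 encodes GLUT2, through which glucose leaves the proximal tubule cell towards the blood, and lies at chr3:28697903-28731359 (+ strand). Sham kidneys had 108 to 137 CPM (median 122), kidneys at 5d post-MI 83.4 to 129 CPM (median 115) and kidneys at 28d post-MI 94.2 to 123 CPM (median 103). Of the 6 kidneys at 28d post-MI, 4 were lower than any sham kidney. The log2 fold change was -0.22 (SE 0.08, interval -0.39 to -0.05) at 28d, with an unadjusted p of 0.0142 and an adjusted p of 0.444 in edgeR, and -0.12 (SE 0.08, interval -0.28 to 0.04, adjusted p = 0.746) at 5d post-MI. Without replicate 9 or 7 of the 5d group the 5d value was -0.07 or -0.08, and it was -0.19 with the adipocyte score as covariate. The 28d value lay between -0.29 and -0.19 in every alternative and with every kidney left out, and it did not pass in any of these.

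Slc5a2 encodes SGLT2, which takes up most of the filtered glucose in the first part of the proximal tubule. The table held 0 to 3 counts of it per kidney, or 0 to 1.07 CPM, and no count in 4 of 8 sham kidneys, 4 of 8 at 5d and 4 of 6 at 28d post-MI. A count of 0 allows up to 3 counts, that is 0.809 to 1.33 CPM, and covers counting error only. It did not pass the filter on low counts. In an edgeR fit without that filter its adjusted p was 0.921 at 5d and 0.932 at 28d post-MI, on 19 counts in all, and no fold is given at this level. Its gene, chr7:128265657-128272430 on the + strand, ends inside BC017158, a gene of the opposite strand at chr7:128271379-128298170. All 467 bases of its last exon and all 500 bases at its 3′ end, where MACE reads fall, lie within exons of BC017158, which was measured at 7.73 to 18.8 CPM. The strand setting of the counting is not given in the sources used here, and the part of this overlap in the low count was not tested. The related luminal transporter Slc5a1 (SGLT1), which takes up the glucose that SGLT2 leaves, was at 57.9 to 86.2 CPM with log2 fold changes of 0.05 and 0.03 (adjusted p = 0.916 and 0.958).

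**Figure D3:**
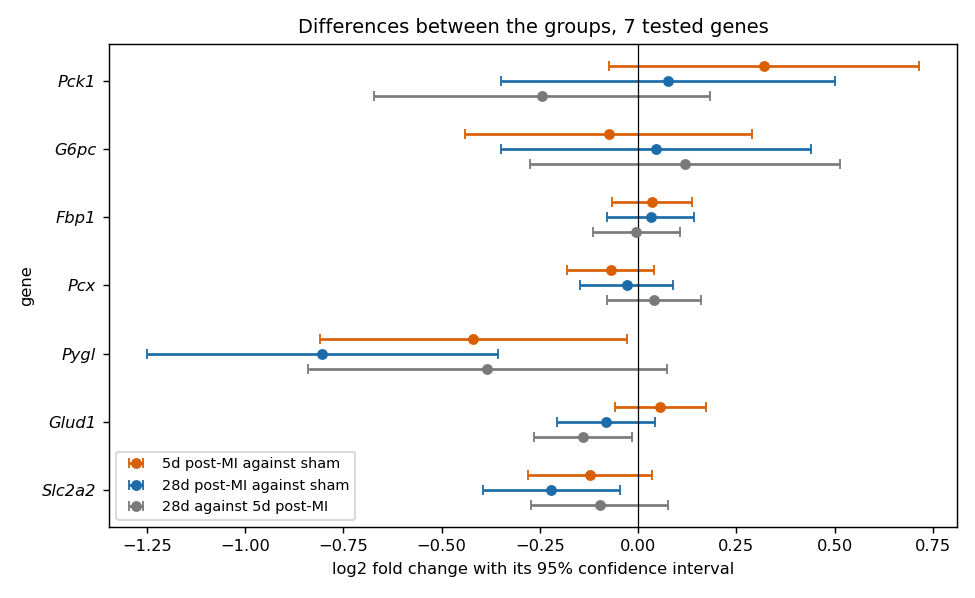
Log2 fold changes (x axis) of the 7 tested genes (y axis) with 95% confidence intervals from edgeR, in orange for 5d post-MI and in blue for 28d post-MI, each set against sham, and in grey for the difference between both times. The intervals of Fbp1 and Pcx stay within 0.18 of 0, those of Pck1 and G6pc are wider and include 0, and those of Pygl at both times and of Slc2a2 at 28d against sham, and of Glud1 between the times, lie below 0 before adjustment.

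The members differed in how much they varied between mice of the same group. The SD within groups on the log2 scale was 0.38 for Pck1, 0.37 for Pygl and 0.35 for G6pc, and 0.18 for Slc2a2, 0.12 for Glud1, 0.12 for Pcx and 0.11 for Fbp1. Among the tested genes in the upper tertile by level, the median SD was 0.14, and Pck1, Pygl and G6pc lay at the 97.6th, 97.4th and 97.0th percentile of that group of genes. Fbp1 lay at the 25.7th and Pcx at the 33.0th percentile.

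Of the 21 pairs among the 7 tested members, 1 pair passed a permutation test within groups (100000 permutations, two-sided, adjusted over 42 relations that also include marker scores). This was Pck1 with Glud1, with a Pearson's r of 0.65 (adjusted p = 0.0330) and a Spearman's rho of 0.68 (adjusted p = 0.0174). The value of r was 0.90 in sham, 0.51 at 5d and 0.65 at 28d post-MI, and 0.61 without the 2 kidneys farthest from the median of Pck1. Pck1 with Pcx had an r of 0.60 and a rho of 0.51 (adjusted p = 0.0823 and 0.201), with r within groups of 0.53, 0.57 and 0.73 and 0.54 without the 2 farthest kidneys. Pck1 with G6pc had an r of 0.43 and a rho of 0.42 (adjusted p = 0.226 and 0.239), and r was 0.76 in sham, 0.49 at 5d and 0.09 at 28d post-MI and 0.54 without the 2 farthest kidneys. For Pck1 with Slc2a2 r was -0.49 and rho -0.47 (adjusted p = 0.167 and 0.206), and r differed in sign between sham, at 0.41, and the MI groups, at -0.79 and -0.91, a difference that was not tested. Without the 2 farthest kidneys r was -0.25. All counts of a kidney share 1 library, so these relations also hold what the library itself brings.

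The proximal tubule score had an r of 0.53 and a rho of 0.60 with Fbp1 (adjusted p = 0.145 and 0.0664), 0.49 and 0.41 with Pcx (adjusted p = 0.196 and 0.239), and 0.47 and 0.49 with G6pc (adjusted p = 0.196 and 0.201). Without the 2 kidneys farthest from the median of each gene these r values were 0.57, 0.16 and 0.39. Within groups (sham, 5d and 28d post-MI) r was 0.71, 0.44 and 0.47 for Fbp1 and 0.38, 0.25 and 0.91 for Pcx. For G6pc it was 0.68, -0.003 and 0.74. Pck1 had an r of 0.38 and a rho of 0.37 with the score (adjusted permutation p = 0.272 and 0.288), and r within groups of 0.47, -0.05 and 0.69. Glud1 and Slc2a2 had an r of -0.06 and -0.01 with the score (rho -0.05 and -0.06). The adjusted permutation p was 0.865 and 0.973 for r and 0.896 and 0.878 for rho. Within groups r was 0.18, -0.59 and 0.55 for Glud1 and 0.39, -0.02 and -0.45 for Slc2a2. The proximal tubule genes themselves were higher in sum, most of it Kap, in all 6 kidneys at 28d post-MI than in any sham kidney. Of these genes 11 of 12 had positive log2 fold changes at 28d post-MI (median 0.14). An unadjusted p under 0.05 in edgeR was reached by 4 of them, beside 8.68% of all tested genes, with 0 DEGs. Summed genes of the S1 and S2 segments overlapped, at 5234 to 6829 CPM in sham and 5380 to 6879 CPM at 28d. Those of the S3 segment overlapped too, at 2046 to 2716 and 2554 to 2873 CPM.

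**Figure D4:**
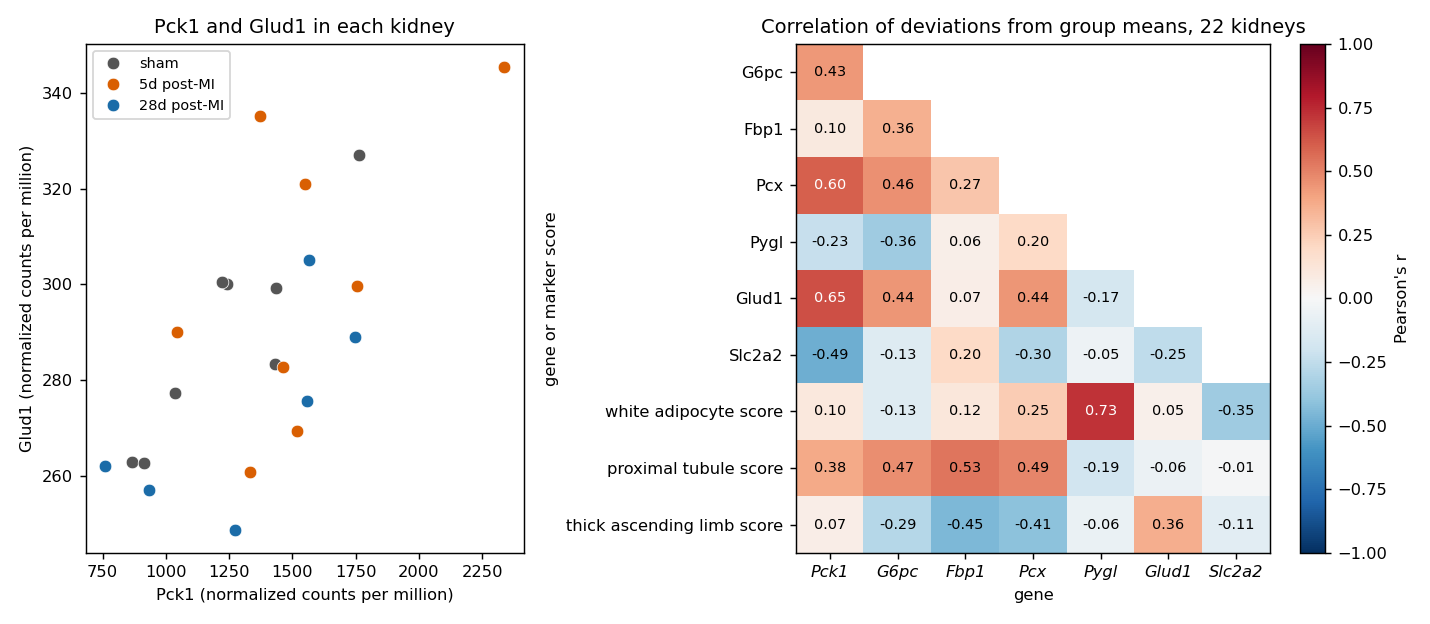
Left, Glud1 against Pck1 in normalized CPM on linear axes, with 1 point per kidney coloured by group. Right, Pearson's r over the 22 kidneys, as deviations from group means, between members (x axis) and other members or marker scores (y axis), where Pygl with the white adipocyte score (0.73) and Pck1 with Glud1 (0.65) are the relations that passed the permutation test.

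Among all tested genes, those whose deviations from the group means were most like each member's over the 22 kidneys are given as a description. For Pck1 they were Tagln2 (r = 0.92), the glucocorticoid-induced gene Tsc22d3 (0.86) and the endoplasmic reticulum stress gene Herpud1 (0.84). For Pygl they were Tkt (0.88), a transketolase, and the fatty acid synthesis genes Acaca (0.87) and Fasn (0.86). Those near Fbp1 included Slc22a22 (0.81) and Hgd (0.80), which acts in tyrosine breakdown. Those near G6pc included Thop1 (0.75) and Aldh1l1 (0.74). Pcx was nearest to Prdx6 (0.77), Cct2 (0.74) and the carnitine carrier Slc25a20 (0.72), Glud1 to Prkar2a (0.83), Pias2 (0.77) and Rpia (0.76), and Slc2a2 to Rab11fip3 (0.83), Slc12a7 (0.83) and Srebf2 (0.82).

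The other genes of these pathways were taken from 5 lists of 112 genes, of which 102 were tested. None was a DEG in edgeR in any comparison, and limma voom called none. An unadjusted p under 0.05 was reached by 13 of 102 genes at 5d (7 higher, 6 lower) and by 22 of 102 at 28d post-MI (7 higher, 15 lower). That is 12.7% and 21.6% beside the 7.9% and 8.68% of all tested genes. Between the times 10 of 102 did so, or 9.80% beside 9.05% of all tested genes. The same shares of all tested genes apply to the counts of each list below. The median log2 fold change over the 102 genes was -0.01 at 5d and -0.02 at 28d post-MI, beside a median of 0.00 over all tested genes. DESeq2 called 1 of them, Cebpa at 28d post-MI, where it called 0.329% of all tested genes.

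Of the 35 tested genes of gluconeogenesis and glycolysis steps, 3 reached an unadjusted p under 0.05 at 5d, which were Aldoa, Gpd1 and Fbp2, and 9 did so at 28d post-MI, 8 of them lower. Aldolase A (Aldoa) had a log2 fold change of -0.12 at both times (adjusted p = 0.503 and 0.490 in edgeR). Gpd1, which links glycerol to glucose and fat synthesis, was at 445 to 599 CPM in sham kidneys and 345 to 512 CPM at 28d post-MI, a log2 fold change of -0.36 (SE 0.13, adjusted p = 0.417), and of -0.19 (adjusted p = 0.830) with the adipocyte score as covariate. Glycerol kinase (Gk), which lets glycerol enter the pathway, had a log2 fold change of 0.15 (SE 0.06, adjusted p = 0.479), with 6 of 6 kidneys above the sham median, and of 0.05 (adjusted p = 0.931) with the proximal tubule score as covariate.

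In ammonia production and transport, 3 of 20 tested genes had an unadjusted p under 0.05 at 5d, which were Me1, Rhcg and glutamine synthetase (Glul), and 3 at 28d post-MI, which were Car2, Slc7a8 and Slc6a19. Carbonic anhydrase 2 (Car2) was at 285 to 348 CPM in sham kidneys and 236 to 303 CPM at 28d post-MI, with 5 of 6 kidneys lower than any sham kidney. Its log2 fold change of -0.20 (SE 0.06) had an unadjusted p of 0.000907 and an adjusted p of 0.227 in edgeR. The basolateral amino acid transporter Slc7a8 had -0.38 (SE 0.12, adjusted p = 0.323), and it passed in edgeR when no low-count filter was used (adjusted p = 0.0160) or when only sham and 28d kidneys were fitted (adjusted p = 0.00666). Malic enzyme (Me1) had -0.29 (SE 0.10, adjusted p = 0.444) and the ammonia channel Rhcg 0.19 (SE 0.09, adjusted p = 0.587, and 0.12 without 5d replicate 2) at 5d post-MI. Glul had 0.30 (adjusted p = 0.590) at 5d and the neutral amino acid transporter Slc6a19 -0.36 (adjusted p = 0.565) at 28d post-MI, both named because they were in these short counts.

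Of 13 tested glycogen genes 12 had a negative log2 fold change at 5d and 11 at 28d post-MI. The medians were -0.10 and -0.08, beside 0.0002 and -0.001 over all tested genes. An unadjusted p under 0.05 in edgeR was reached by 1 of 13 at each time (7.69%), beside 7.9% and 8.68% of all tested genes. The branching enzyme Gbe1 reached an unadjusted p under 0.05 at 5d (log2 fold change -0.21, adjusted p = 0.622 in edgeR) and Ugp2, which makes UDP-glucose, at 28d post-MI (0.14, adjusted p = 0.537, and 0.08 with the proximal tubule score as covariate). Pgm2, a phosphopentomutase, had -0.34 (adjusted p = 0.587) at 28d.

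In glucose and sugar transport, 11 genes were tested, and 3 had an unadjusted p under 0.05 at 5d and 5 at 28d post-MI. Slc2a1 encodes GLUT1, a glucose transporter of distal segments and many other cells. Its level was 24.8 to 39.6 CPM in sham kidneys (median 34.5), 35.6 to 53.0 CPM at 5d (median 40.2) and 39.6 to 45.1 CPM at 28d post-MI (median 42.5). Every MI kidney was above the sham median, and at 28d post-MI the lowest kidney was just above the highest sham kidney (39.63 against 39.62 CPM). Slc2a1 was the 1 gene of the 102 tested in the lists whose groups did not overlap there, beside 0.258% of all tested genes. The log2 fold changes were 0.31 (SE 0.09, unadjusted p = 0.000985, adjusted p = 0.229) and 0.32 (SE 0.09, unadjusted p = 0.00154, adjusted p = 0.259) in edgeR.

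Red blood cell genes, which were higher in sum in every 5d kidney (5009 to 19154 CPM) than in any sham kidney (2239 to 4164 CPM), were at 1835 to 5165 CPM at 28d post-MI, and their part in the Slc2a1 values was not tested. The insulin-regulated transporter Slc2a4 of fat and muscle had -0.34 (adjusted p = 0.472) and -0.44 (adjusted p = 0.323), and with the adipocyte score as covariate -0.18 and -0.25. The fructose transporter Slc2a5 (-0.16, adjusted p = 0.563), the lactate transporter Slc5a12 (-0.32, adjusted p = 0.335) and Slc5a10 (0.18, adjusted p = 0.417) completed the 5 genes at 28d post-MI, and Slc2a9 (0.31, adjusted p = 0.549) the 3 genes at 5d.

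Of 23 tested regulators, 3 had an unadjusted p under 0.05 at 5d (Foxo3, Hnf4a and Cebpa) and 4 at 28d post-MI (Creb1, Hnf4a, Cebpa and Pth1r). Cebpa, a transcription factor of liver and fat cells, was at 78.5 to 161 CPM in sham kidneys, 57.6 to 124 CPM at 5d and 69.6 to 89.2 CPM at 28d post-MI. It fell at 28d post-MI by the DESeq2 test (adjusted p = 0.0346), with a log2 fold change in edgeR of -0.63 (SE 0.18, adjusted p = 0.276), and of -0.30 (adjusted p = 0.683) with the adipocyte score as covariate. The forkhead factor Foxo3 had 0.26 (SE 0.09, adjusted p = 0.427) at 5d, and Creb1, which binds cyclic AMP response elements, had 0.23 (SE 0.09, adjusted p = 0.444) at 28d post-MI, which was 0.14 without 28d replicate 3 and 0.11 with the proximal tubule score as covariate. Hnf4a had 0.13 (adjusted p = 0.598) and 0.15 (adjusted p = 0.507) at the 2 times, and the parathyroid hormone receptor Pth1r 0.15 (adjusted p = 0.530) at 28d.

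**Figure D5:**
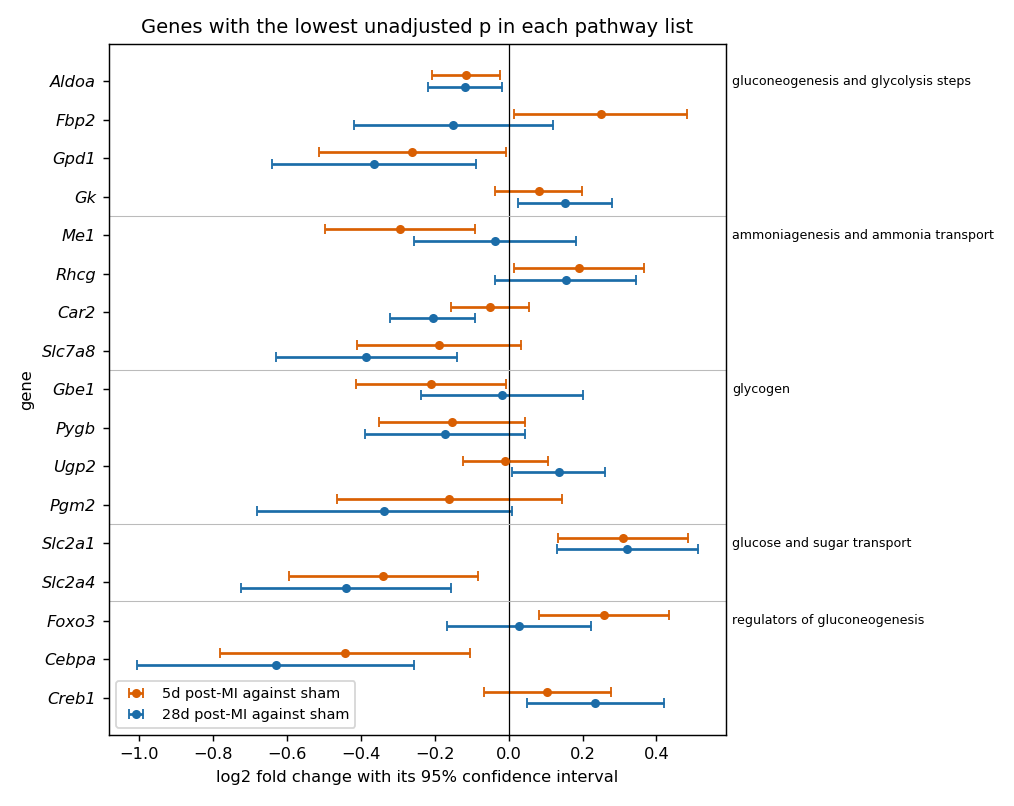
Log2 fold changes (x axis) with 95% confidence intervals, from edgeR, of the 17 genes with the lowest unadjusted p in each pathway list (y axis) at 5d and 28d post-MI against sham. The intervals are unadjusted and the genes were picked by p, so most lie off 0, and none passed after adjustment; Slc2a1 lies near 0.3 at both times and Cebpa and Slc2a4 lie below 0 at both.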

How the data were processed

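The labels list kidneys of 24 mice (8 sham, 9 at 5d and 7 at 28d post-MI). The deposited table holds raw counts per gene that the authors made by trimming with Cutadapt, mapping and HTSeq counting. The study's methods name the build mm10 and the submitters' processing notes name mm39 and Bowtie2. The annotation and the strand setting are not given in the sources used here. Of 48 value columns 22 count columns were used. The other 26 were the 24 columns of tpm values and 2 count columns that share a name, so that 1 kidney at 5d and 1 at 28d post-MI could not be assigned. No library was present more than once within a group. The counts of the 71 pairs of same-group kidneys differed with a chi-squared of 1.77 to 8.10 per degree of freedom. Kidneys of different groups were not compared in this way.

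All 22 kidneys entered 1 edgeR quasi-likelihood fit (edgeR 4.0.16, R 4.3.3, TMM, filterByExpr, robust), adjusted by Benjamini-Hochberg over all tested genes and called at an adjusted p under 0.05. DESeq2 1.42.0, limma 3.58.1 voom and other scalings, filters, blocks and covariates were alternatives. The fits were tested on simulated data. Relations used log2 CPM with a prior count of 2, and p-values are two-sided. The members, lists and tests were chosen with earlier results of these data known. Named genes were the 8 members, the counterparts of the members, the 2 genes with the lowest unadjusted p in each list and contrast with sham, and the 3 nearest genes by correlation. Genes outside this rule were named where a short count held them. Some genes under the rule are not reported here. Gene positions come from GENCODE M21 (GRCm38) by gene identifier, and promoter windows from RefSeq (GRCm38.p6). Counts of identifiers with a symbol were 51948 of 56941.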

Additional observations from a re-analysis of the deposited data

Results flagged for a closer look

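Of 72 groups of kidneys examined for members and named genes, 1 held a kidney far from the others, where chance gives about 1 in 20 groups. Cebpa was at 89.2 CPM in 28d replicate 2, and the other 5 kidneys at 28d post-MI were between 69.6 and 73.3 CPM.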

How the results depend on the processing

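The count of member DEGs at 28d post-MI was 0 in edgeR and 1 (Pygl) with DESeq2, and between 0 and 1 with each kidney left out, 1 without sham replicate 8. The count of other pathway DEGs at 28d post-MI was 0, and it was 1 with DESeq2 (Cebpa), 2 with no filter on low counts (Slc7a8 and Slc2a4) and 1 with only the 2 groups compared (Slc7a8). Between 28d and 5d post-MI it was 0, and 1 with no filter (Slc5a12). All other alternatives and the fits without 1 kidney gave 0 for these counts, and all gave 0 at 5d. Over all tested genes, DEGs at 5d, at 28d and between the times numbered 9, 3 and 53 in edgeR, 35, 42 and 96 in DESeq2, 80, 94 and 160 with no filter and 2, 31 and 26 with only the 2 groups compared. The cause of these differences was not tested.

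Directions that changed belonged to differences of at most 0.12 on the log2 scale in the main edgeR fit, the value of G6pc between the times. On the log2 scale, the 28d difference of Pck1 was -0.023 without the 3 kidneys with adrenal genes (an alternative chosen after seeing the data), -0.11 with the proximal tubule score as covariate and -0.024 to 0.19 with each kidney left out. With that score, G6pc had -0.17 and Fbp1 -0.041 at 28d, and G6pc had -0.12 and Pcx -0.039 between the times. Fbp1 had -0.0080 at 28d with library totals. Between the times Fbp1 had 0.00052 in limma voom, 0.0023 without the kidneys with adrenal genes and 0.0097 with the replicate block. Pcx had 0.0044 at 28d with the adipocyte score. With each kidney left out the 28d differences lay between -0.026 and 0.15 for G6pc and between -0.077 and 0.0053 for Pcx, and those between the times lay between -0.029 and 0.026 for Fbp1 and between -0.0063 and 0.068 for Pcx. Of the values of members under the alternatives, 198 kept their direction and their side of the threshold, 11 changed direction and 1, Pygl in DESeq2, came to pass. With each kidney left out, 449 kept both, 12 changed direction and 1 came to pass.

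Replicate numbers are shared between groups in the labels, but they did not pair the kidneys: the deviations of 18 same-numbered pairs had correlations between -0.13 and 0.09, and 2 of 22 kidneys correlated best with their own number. With the number as a replicate block, members and other pathway genes still gave 0 DEGs in each comparison, and the count over all genes was 2 at 5d, 24 at 28d and 80 between the times. The low count limits statements on Slc5a2, and the cause of that low count was not tested. The intervals given for each gene are unadjusted and are not limits of detection. Changes within them are not excluded, and differences whose interval lay off 0, as for Pygl at 28d post-MI, also did not pass in edgeR.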
